A study of Rattus norvegicus with 24 samples.

Results

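The genes described here are 10 genes of glucose uptake, glycolysis and the response to low oxygen: the glucose transporter gene Slc2a1, the glycolytic genes Hk1, Hk2, Pfkfb3, Aldoa, Pgk1, Eno1 and Ldha, and the hypoxia-response genes Car9 and Vegfa. They were found on the array by gene name or by the accession behind an older name, which gave 13 probes for the 10 genes. Hk1, Eno1 and Vegfa had 2 probes each, and the brighter probe stood for the gene. The 10 genes were part of 26102 features tested, a feature being a gene or an unnamed probe. The animals were male (ACIxF344)F1-Pirc rats, all carrying 1 mutant allele of the tumour suppressor gene Apc (Apc-Pirc/+) and prone to colonic tumours. There were 4 groups of 5 rats at 97 days of age, namely normal distal colon and colonic tumour of untreated rats, and the same tissues of rats that drank 4% dextran sodium sulfate (DSS). DSS, an irritant of the colonic lining with a molecular weight of 500000, was in the water in 2 courses, the first over days 40 to 47 of age and the second over days 54 to 61. Untreated rats were numbered 2, 3, 4, 8 and 10 and DSS rats 1, 5, 6, 7 and 9, and every rat gave 1 normal and 1 tumour sample. Every animal carried the Apc mutation, and the only wild-type RNA was the pooled colon reference that shared each array.

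Glycolysis breaks glucose down to pyruvate, and lactate dehydrogenase then turns pyruvate into lactate when glycolysis runs faster than the mitochondria use its product. Hypoxia-inducible factors (HIFs) are transcription factors that are destroyed while oxygen is plentiful and that switch on glucose transporters, most glycolytic enzymes, the acid-handling enzyme carbonic anhydrase 9 and the vessel growth factor VEGF-A when it is scarce. Tumours often run glycolysis at a high rate even in the presence of oxygen. The colonic lining is unusual among tissues in living close to an oxygen-poor gut lumen, and its absorptive cells burn bacterial butyrate as a main fuel.

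Because an array reads a gene through a short piece of its sequence, the probes behind the main results are shown first. Each was a 60-base stretch, and no base is marked by capitals here. The dimmer Hk1 probe stands beside that of Hk2 because their enzymes are closely related.
Pgk1: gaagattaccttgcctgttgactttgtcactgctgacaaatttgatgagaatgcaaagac
Ldha: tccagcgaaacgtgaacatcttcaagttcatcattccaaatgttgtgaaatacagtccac
Car9: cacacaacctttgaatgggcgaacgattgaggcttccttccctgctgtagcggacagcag
Hk1, dimmer probe: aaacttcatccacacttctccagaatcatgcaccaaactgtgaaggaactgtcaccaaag
Hk2: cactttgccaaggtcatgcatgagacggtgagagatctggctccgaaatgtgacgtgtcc
Over the 48 bases by which the dimmer Hk1 probe and the Hk2 probe could be laid side by side, 32 bases were identical (66.7%). The RefSeq gene table for GRCr8 names pseudogenes after several members, with 31 for Eno1, 30 for Ldha, 9 for Aldoa and 8 for Pgk1, and none for the other 6. RNA from such near copies can bind the same probe, so the values of these 4 genes are uncertain to that extent.

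HIFs bind a short core, and the cores ACGTG and GCGTG were searched on both strands of the 250 bases before each start site in the RefSeq promoter table (GRCr8). The table held 14 such windows for 9 members, all but Pgk1. A core was present in 7 of the 14 windows (50%) and in 12284 of all 33469 windows of that length (36.7%). Ldha and Slc2a1 had the most matches, 4 each, and the windows of Car9, Hk2 and Vegfa had none. The Ldha and Car9 windows are printed as examples, picked after these genes were seen to differ in opposite directions between tumour and normal colon. Slc2a1, with 4 matches, was not called in any comparison, nor were Hk2 and Vegfa, with no match. Any link between the cores and the differences was not tested. Capitals mark the cores. An ACGTG read on both strands of CACGTG, at positions -87 to -82 from the Ldha start, gave 2 overlapping matches.
Ldha, chr1:106507842-106508091, plus strand: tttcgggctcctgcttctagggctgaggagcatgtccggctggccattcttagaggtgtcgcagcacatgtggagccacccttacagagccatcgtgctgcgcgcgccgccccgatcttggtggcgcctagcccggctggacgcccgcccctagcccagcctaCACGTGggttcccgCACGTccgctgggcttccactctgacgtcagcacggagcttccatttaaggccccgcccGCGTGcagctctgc
Car9, chr5:62558774-62559023, plus strand: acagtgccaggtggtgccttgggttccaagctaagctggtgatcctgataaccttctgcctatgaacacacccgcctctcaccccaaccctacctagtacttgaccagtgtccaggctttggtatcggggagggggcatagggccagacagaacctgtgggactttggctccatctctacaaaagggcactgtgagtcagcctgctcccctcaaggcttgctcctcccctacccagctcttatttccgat
A match is a description of the letters and not a measured site, and a window without a match says nothing about binding elsewhere.

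All values are log2 ratios of the rat's sample (Cy3) to the wild-type colon pool (Cy5), and each difference is on the log2 scale with its standard error (SE). A difference was called when its adjusted p (limma, Benjamini-Hochberg over all features, two-sided) was below 0.05. A ratio to the pool cannot be compared between genes. The share of gene probes well above background in the sample channel ran from 48.4% to 71.0% on 21 arrays and from 87.1% to 95.2% on the other 3, which held 1 of the 2 arrays of normal colon of untreated rat 2, the normal colon of untreated rat 4 and the tumour of DSS rat 9. Axin2, a target of the Wnt pathway, was measured as a check of the tissue labels and was higher in tumours by 0.995 ± 0.24 and 1.01 ± 0.24 (SE) in untreated and DSS rats. Mmp7, a protease of intestinal tumours, was higher by 5.56 ± 0.33 and 1.95 ± 0.33, and Slc26a3, a chloride transporter of mature colonocytes, was lower, at -4.54 ± 0.73 and -3.83 ± 0.73. The slide identifiers fell into 2 series, called lots here although the labels do not name them so, and each held rats of every group. Lot 1 held 3 rats of each group and lot 2 held 2. Within lot 2 limma called 110 of 26102 features for tumour against normal colon in DSS rats. It called 2 for DSS in normal colon and 3 for the difference of the DSS differences between the tissues. A miss within lot 2 in these comparisons therefore says little about a gene. Lot 2 was slides 5 and 6, which were also all the slides of scan day 3, so this lot and that scan day cannot be told apart.

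**Figure D1:**
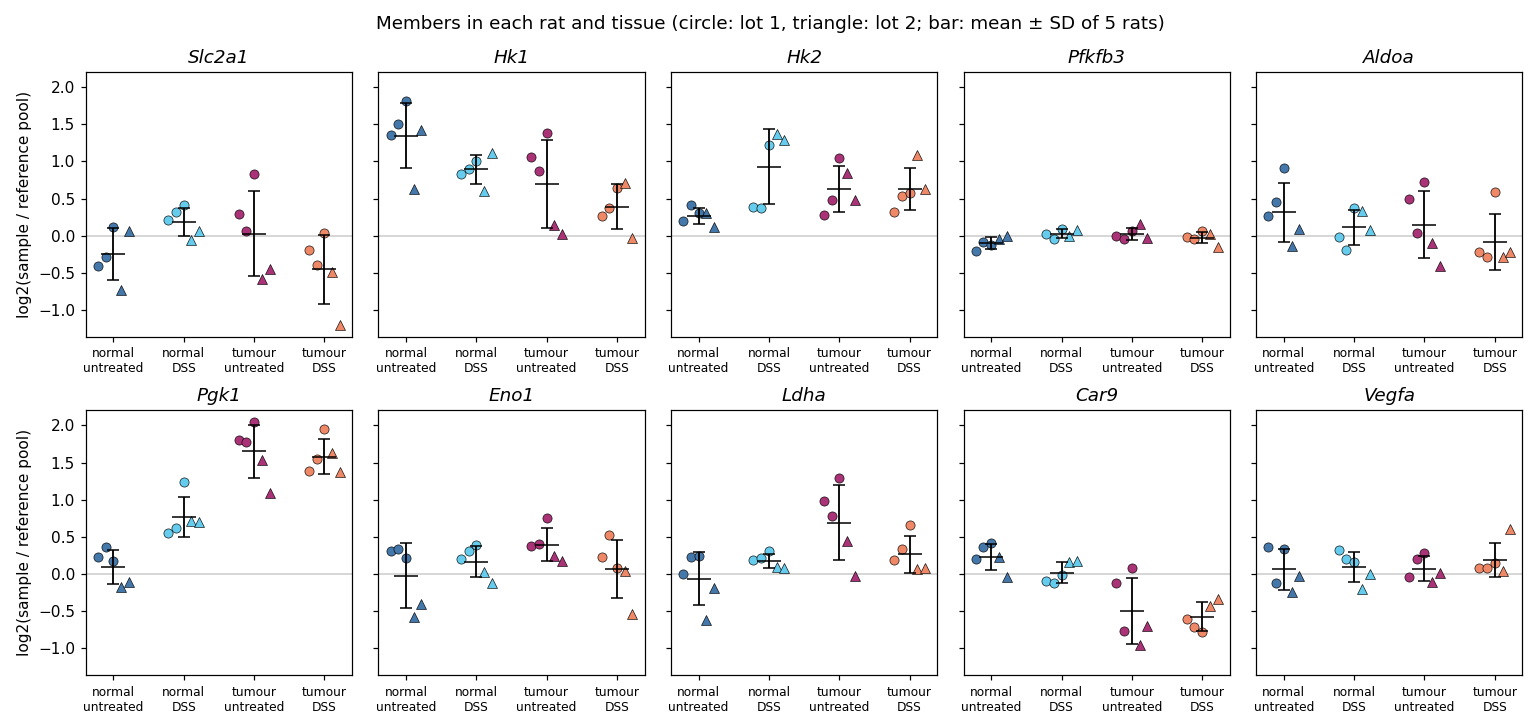
Log2 ratio of sample to reference pool (vertical axis) for each of the 10 genes in each rat, by tissue and treatment, with circles for lot 1, triangles for lot 2 and bars for the mean ± SD of 5 rats. Pgk1 runs from -0.17 to 0.36 in untreated normal colon and from 1.09 to 2.04 in untreated tumours, while Pfkfb3 stays between -0.21 and 0.15 everywhere.

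In untreated rats, tumours carried more Pgk1 and Ldha RNA and less Car9 RNA than normal colon, and the other 7 genes did not pass the test. So 2 of 10 members were higher and 1 was lower, where 18.2% of all 26102 features were called, 8.69% higher and 9.49% lower. The median difference of the members was 0.20, against -0.0016 for all features. In DSS rats the tumours again carried more Pgk1 and less Car9, and Ldha did not pass. There 1 of 10 was higher and 1 lower, with 7.66% of all features called, 3.79% higher and 3.88% lower. In normal colon 1 of 10 members, Pgk1, was higher in DSS rats than in untreated rats. There 7.37% of all features were called, 3.98% higher and 3.39% lower. No member passed between the tumours of DSS and untreated rats. In that comparison limma called 0 features (0%), with 1657 features (6.35%) at an unadjusted p under 0.05, Ldha among them, and the medians of the 10 members and of all features were -0.16 and 0.01. Where median centring of each array took the place of loess, the split of called features moved to 393 higher and 260 lower for tumours of DSS rats, from 988 and 1012, and to 295 higher and 68 lower for DSS in normal colon, from 1040 and 885. No member passed in any comparison with median centring.

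**Figure D2:**
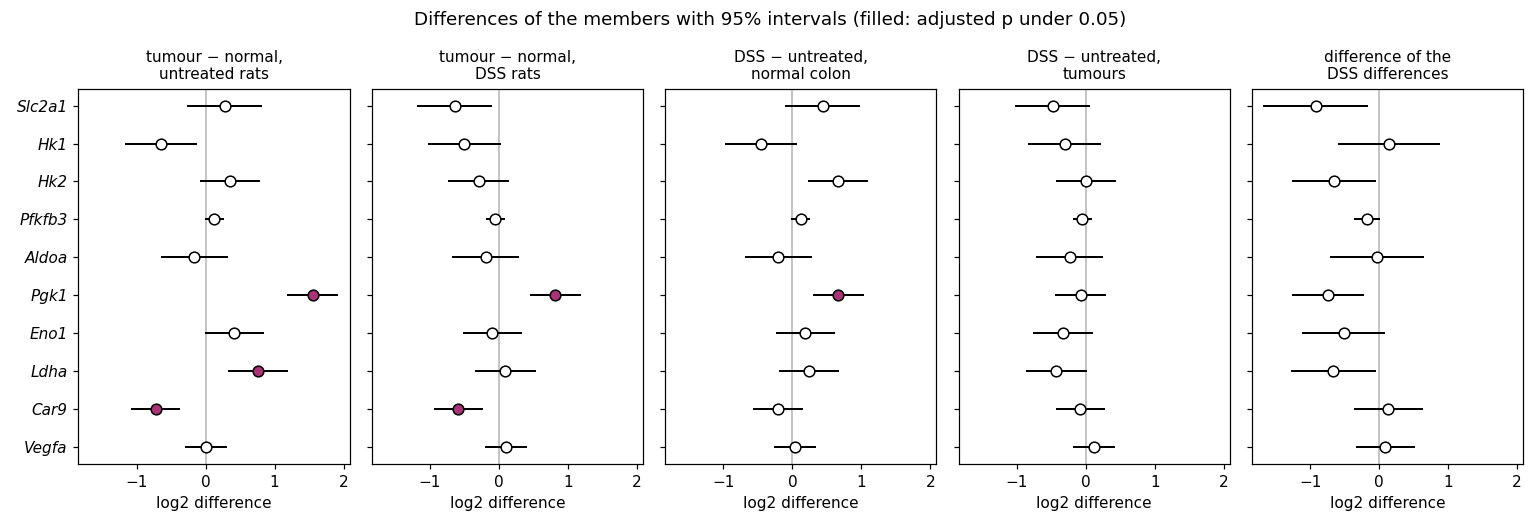
Log2 differences (horizontal axis) of the 10 genes with 95% intervals in the 5 comparisons; filled points have an adjusted p below 0.05. Pgk1 is filled in 3 panels, Car9 in 2 and Ldha in 1, and no point is filled for the tumours of DSS against untreated rats.

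Pgk1 encodes phosphoglycerate kinase, the first step of glycolysis that returns ATP. In normal colon of untreated rats 2, 3, 4, 8 and 10 its log2 ratios were 0.23, 0.36, 0.18, -0.17 and -0.10. In the normal colon of DSS rats 1, 5, 6, 7 and 9 they were 0.55, 0.62, 1.23, 0.72 and 0.70. All 5 values with DSS lay above all 5 without it. In the tumours they were 1.80, 1.77, 2.04, 1.54 and 1.09 in the untreated rats, and 1.39, 1.55, 1.95, 1.63 and 1.37 in the DSS rats. Every tumour lay above every normal sample of the same treatment, whereas tumours of the 2 treatments overlapped. Groups of rats were wholly apart in 12.5% of features for tumour against normal in untreated rats, in 7.69% for the same in DSS rats, in 8.73% for DSS in normal colon and in 0.821% for DSS in tumours.

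Pgk1 was 2.935-fold higher in tumours than in normal colon of untreated rats, a log2 difference of 1.55 ± 0.17 (SE; adjusted p 1.02e-05, limma). In DSS rats the difference was 0.81 ± 0.17, or 1.758-fold (adjusted p 0.00533). The probe was saturated in the sample channel on 1 of 6 arrays of DSS tumours and on no other array, and the part of this in the DSS values was not tested. DSS against untreated gave 0.67 ± 0.17 in normal colon, or 1.587-fold (adjusted p 0.0220), and -0.07 ± 0.17 in tumours, with a 95% interval of -0.43 to 0.28. Within lots 1 and 2 the difference between tumour and normal was 1.62 and 1.45 in untreated rats and 0.83 and 0.79 in DSS rats (adjusted p 0.146 in lot 2), and the DSS difference in normal colon was 0.55 and 0.85, neither of which passed alone (adjusted p 0.0865 and 0.165). With lot as a term the 3 called differences kept adjusted p values of 1.43e-06, 0.00103 and 0.00496. With median centring the same 3 differences were 1.34, 1.48 and 0.41, and none passed (adjusted p 0.242, 0.163 and 0.855). The tumour difference in DSS rats also missed with quantile normalization between arrays (0.66, adjusted p 0.0549). The DSS difference in normal colon missed with the image software's processed signals (0.61, adjusted p 0.115) and without untreated rat 8 (0.60, adjusted p 0.0634). The processed signals were also median centred on each array with no loess step. That setting differs from the one called median centring here only in the signals used.

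The tumour excess of Pgk1 over the same rat's own normal colon was 1.58, 1.41, 1.87, 1.71 and 1.19 in untreated rats 2, 3, 4, 8 and 10. In DSS rats 1, 5, 6, 7 and 9 it was 0.84, 0.93, 0.72, 0.91 and 0.67. The DSS rats all lay below the untreated rats, which was so in one direction or the other for 7.45% of features and for no other member. The difference of these differences was -0.74 ± 0.24 and did not pass in the fit of group means (adjusted p 0.116). It passed with the rat as a fixed or a random block (adjusted p 0.0124 and 0.0265) and with lot as a term (adjusted p 0.0404), and its sign turned with median centring (0.14). In that comparison 2.61% of all features were called in the fit of group means, 0.885% higher and 1.72% lower, and none of the 10 members.

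**Figure D3:**
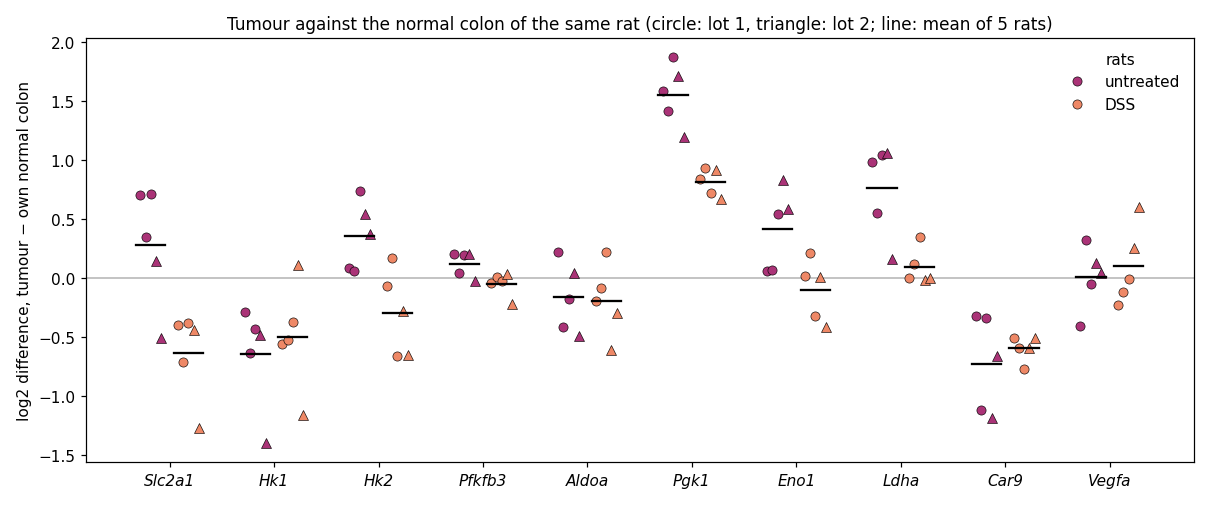
Log2 difference between the tumour and the normal colon of the same rat (vertical axis) for each gene, with untreated and DSS rats side by side, circles for lot 1, triangles for lot 2 and lines at the mean of 5 rats. For Pgk1 the DSS rats lie between 0.67 and 0.93 and the untreated rats between 1.19 and 1.87; for Car9 all 10 rats lie below 0.

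Ldha encodes the subunit of lactate dehydrogenase that favours making lactate from pyruvate. Its log2 ratios in untreated normal colon were -0.0028, 0.23, 0.24, -0.61 and -0.19 in rats 2, 3, 4, 8 and 10. In the tumours of the same rats they were 0.98, 0.78, 1.29, 0.45 and -0.03. The tumour was above the own normal colon in 5 of 5 rats, although the groups overlapped through the tumour of rat 10. The difference was 0.76 ± 0.20 (adjusted p 0.0135), and 0.86 and 0.61 within lots 1 and 2 (adjusted p 0.130 in lot 2). Ldha missed the threshold with only the 2 groups compared in the fit (adjusted p 0.0702), with the processed signals (0.73, adjusted p 0.0594) and with median centring (0.60, adjusted p 0.782).

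With DSS, Ldha ran from 0.07 to 0.31 in normal colon and from 0.07 to 0.66 in tumours, so those groups lay almost on top of each other. The tumour difference in DSS rats was 0.09 ± 0.20, with a 95% interval of -0.34 to 0.51. DSS tumours were lower than untreated tumours by 0.43 on the log2 scale, with an interval that stopped just short of 0, at -0.0038 (adjusted p 0.782). The difference of differences was -0.67 ± 0.29 (adjusted p 0.264; 0.0535 with the rat as a fixed block).

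Eno1 encodes enolase 1, which makes phosphoenolpyruvate, the substrate of pyruvate kinase. The brighter probe was saturated in the sample channel on 7 of 24 arrays and in the reference channel on 8. In the sample channel this was 1 of 7 arrays of untreated normal colon, 1 of 6 with DSS, 3 of 5 of untreated tumours and 2 of 6 of DSS tumours, so its differences are not exact. It gave 0.42 ± 0.20 for tumour against normal in untreated rats (adjusted p 0.172) and -0.10 ± 0.20 in DSS rats (adjusted p 0.845). The tumour was above the own normal colon in 5 of 5 untreated rats and in 3 of 5 DSS rats. The untreated difference passed with the rat as a fixed block (adjusted p 0.0355) and with lot as a term (adjusted p 0.0179), and missed with the rat as a random block (adjusted p 0.0695). The dimmer probe, saturated nowhere, gave 0.74 ± 0.26 in untreated rats (adjusted p 0.0571, in a fit of every probe) and 0.31 ± 0.26 in DSS rats. DSS changed neither probe past the threshold in either tissue.

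Aldoa encodes aldolase A, which splits fructose bisphosphate into its triose products. Its group means were 0.31 ± 0.40 (SD, n = 5) in untreated normal colon, 0.11 ± 0.24 with DSS, 0.15 ± 0.45 in untreated tumours and -0.08 ± 0.38 in DSS tumours. No difference of Aldoa passed, the largest being -0.23 ± 0.22 (SE) for DSS in tumours (adjusted p 0.9999).

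The entry of glucose and its first phosphorylation showed no member whose brighter or only probe passed in any of the 5 comparisons. The dimmer Hk1 probe passed for tumours of untreated rats in the fit of every probe, given below. Slc2a1 encodes GLUT1, the widespread glucose carrier. In tumours of DSS rats 1, 5, 6, 7 and 9 its log2 ratios were -0.19, -0.39, 0.03, -0.50 and -1.20, and in their normal colon 0.21, 0.32, 0.41, -0.06 and 0.07. Each tumour was lower than the own normal colon, while the groups overlapped. The difference was -0.64 ± 0.25 (adjusted p 0.146), which passed with the rat as a fixed block (adjusted p 0.0403) and with lot as a term (adjusted p 0.0377) and missed with the rat as a random block (adjusted p 0.0509). It was 0.10 with median centring. In untreated rats the tumour difference was 0.28 ± 0.25, above the own normal colon in 4 of 5 rats, with 0.59 in lot 1 and -0.18 in lot 2. The lowest value, in the tumour of rat 9, came from an array with raised sample-channel signal, and without the 3 such arrays the DSS-rat difference was -0.45 (adjusted p 0.354). The difference of differences for Slc2a1 was -0.92 ± 0.36 (adjusted p 0.203; 0.0591 with the rat as a fixed block).

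Hk1 and Hk2 encode hexokinases, which trap glucose in the cell; Hk1 is the housekeeping form and Hk2 the inducible form. In normal colon Hk2 ran from 0.12 to 0.41 in the 5 untreated rats. With DSS it was 0.39, 0.37, 1.23, 1.37 and 1.28 in rats 1, 5, 6, 7 and 9. Rats 6, 7 and 9 lay above every untreated rat, and rats 1 and 5 lay within the untreated range. The DSS difference in normal colon was 0.66 ± 0.20 and just missed the threshold (adjusted p 0.0525). It was 0.35 in lot 1 and 1.12 in lot 2. It passed with the rat as a random block (adjusted p 0.0460), with lot as a term (adjusted p 0.0254), with quantile normalization (adjusted p 0.0300), and without rat 1 (adjusted p 0.0256) or rat 5 (adjusted p 0.0302). In tumours the DSS difference of Hk2 was 0.01 ± 0.20, with a 95% interval of -0.42 to 0.43.

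Hk1 was lower in the tumour than in the own normal colon of 5 of 5 untreated rats and 4 of 5 DSS rats. In untreated normal colon its log2 ratios were 1.35, 1.505, 1.82, 0.63 and 1.42 in rats 2, 3, 4, 8 and 10, and in the tumours 1.06, 0.87, 1.38, 0.15 and 0.03. The groups overlapped. The difference was -0.65 ± 0.24 (adjusted p 0.0750), and it passed with the rat as a fixed or a random block (adjusted p 0.0227 and 0.0251) and with lot as a term (adjusted p 0.0273). The dimmer Hk1 probe, whose sequence is printed above, gave -0.64 ± 0.22 in the fit of every probe. It passed there just under the threshold, with an adjusted p of 0.049988. In DSS rats the brighter probe gave -0.50 ± 0.24 (adjusted p 0.267) and the dimmer probe -0.20 ± 0.22 (adjusted p 0.672). For DSS in normal colon the brighter probe gave -0.45 ± 0.24 (adjusted p 0.308). That difference passed with quantile normalization (-0.98, adjusted p 0.0353), with array weights (-0.55, adjusted p 0.0337) and within lot 1 (-0.65, adjusted p 0.0236), and was -0.17 in lot 2.

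**Figure D4:**
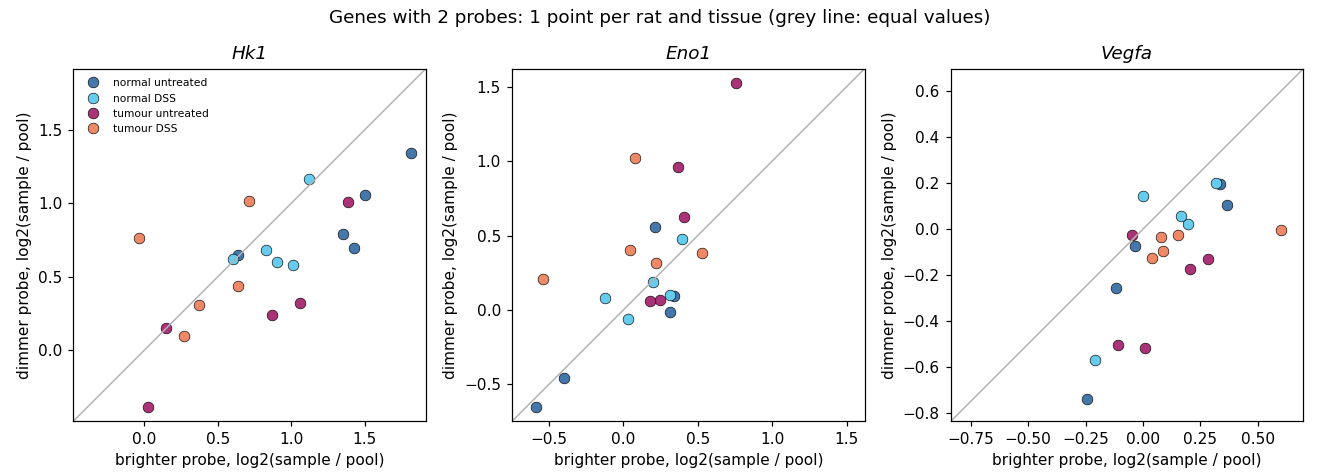
Log2 ratio of the brighter probe (horizontal axis) against the dimmer probe (vertical axis) for Hk1, Eno1 and Vegfa, 1 point for each of 20 rat and tissue samples, coloured by group, with the line of equal values. The probes differ by up to 0.80 for Hk1, 0.95 for Eno1 and 0.60 for Vegfa in a single sample.

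The probe pairs followed each other only in part. The root mean square difference after centring each probe was 0.36 for Hk1, 0.36 for Eno1 and 0.19 for Vegfa over the 20 samples. This gap is one of single samples and is not on the footing of differences between means of 5 rats. For tumour against normal colon of untreated rats the brighter and dimmer probes gave -0.65 and -0.64 for Hk1, and 0.42 and 0.74 for Eno1. In DSS rats they gave -0.50 and -0.20 for Hk1, and -0.10 and 0.31 for Eno1.

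Pfkfb3 encodes the enzyme that makes fructose 2,6-bisphosphate, an activator of glycolysis. It was dim, well above background on 9 of 24 arrays, namely 3 of 7 arrays of untreated normal colon, 1 of 6 with DSS, 3 of 5 of untreated tumours and 2 of 6 of DSS tumours. Its differences lay between -0.05 and 0.12 in the 4 group comparisons, and none passed. With the processed signals they were 0.46 for tumours of untreated rats and 0.46 for DSS in normal colon, neither of which passed (adjusted p 0.310 and 0.375), and with array weights the DSS difference in normal colon passed at 0.14 (adjusted p 0.0433). Signals this near background limit what its ratios can show.

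Car9 encodes carbonic anhydrase 9, an enzyme on the cell surface that helps remove acid and is a standard marker of hypoxia. Here it was lower in tumours. In the tumours of untreated rats 2, 3, 4, 8 and 10 its log2 ratios were -0.13, -0.76, 0.08, -0.96 and -0.70, and in their normal colon 0.20, 0.36, 0.42, 0.22 and -0.05. The groups overlapped through the tumour of rat 4, which lay above the normal colon of rat 10. In DSS rats 1, 5, 6, 7 and 9 the tumours gave -0.60, -0.72, -0.78, -0.43 and -0.34, all below the normal colon at -0.09, -0.13, -0.02, 0.17 and 0.17. In 10 of 10 rats the tumour was below the own normal colon.

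The Car9 difference was -0.73 ± 0.16 in untreated rats (adjusted p 0.00448) and -0.59 ± 0.16 in DSS rats (adjusted p 0.0309). Within lots 1 and 2 it was -0.60 and -0.92 in untreated rats and -0.62 and -0.55 in DSS rats, where neither lot passed alone (adjusted p 0.0557 and 0.199). With median centring it was -0.95 in untreated rats (adjusted p 0.334) and -0.04 in DSS rats (adjusted p 0.955). The call in DSS rats was lost without any 1 of the DSS rats 1, 5, 6, 7 or 9, with adjusted p values from 0.0724 to 0.111 and differences that stayed between -0.61 and -0.55 over all left-out rats. DSS gave -0.21 ± 0.16 in normal colon and -0.08 ± 0.16 in tumours, and neither passed.

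Vegfa encodes the main growth factor for blood vessels. It was the least changed member between tumour and normal colon of untreated rats, at 0.01 ± 0.14 with a 95% interval of -0.28 to 0.30. All 4 of its group differences lay between 0.01 and 0.12, and the dimmer probe gave differences from -0.12 to 0.21. The 95% intervals of the brighter probe ran from -0.28 at the lowest to 0.41 at the highest in these 4 comparisons.

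The rest of glycolysis was read from a list of 21 further enzyme genes, all of them measured. Between tumour and normal colon of untreated rats 4 of the 21 were higher and 1 was lower, with a list median of 0.12. Over all features 8.69% were higher and 9.49% lower. Pfkp, the platelet form of phosphofructokinase, was higher by 1.504 ± 0.27 (adjusted p 0.000878), and Pgam1, the mutase that follows Pgk1, by 0.67 ± 0.14 (adjusted p 0.00253). The other two that rose were Ldhb at 1.33 ± 0.36 and Hk3 at 0.50 ± 0.13, named after their values were seen. Eno3, the muscle enolase, was lower, at -1.91 ± 0.33 (adjusted p 0.000642). None of these 5 passed with median centring, and in each case the direction stayed the same for the 3 named by rule. The fixed rat block called 7 higher and 5 lower in this list, and the random block 4 and 4. With the 7 glycolytic members, 6 of 28 enzymes were higher and 1 was lower, against the 8.69% and 9.49% of all features. The 6 were Hk3, Pfkp, Pgk1, Pgam1, Ldha and Ldhb, at 5 of 12 steps. A step with several genes had more chances of a call.

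**Figure D5:**
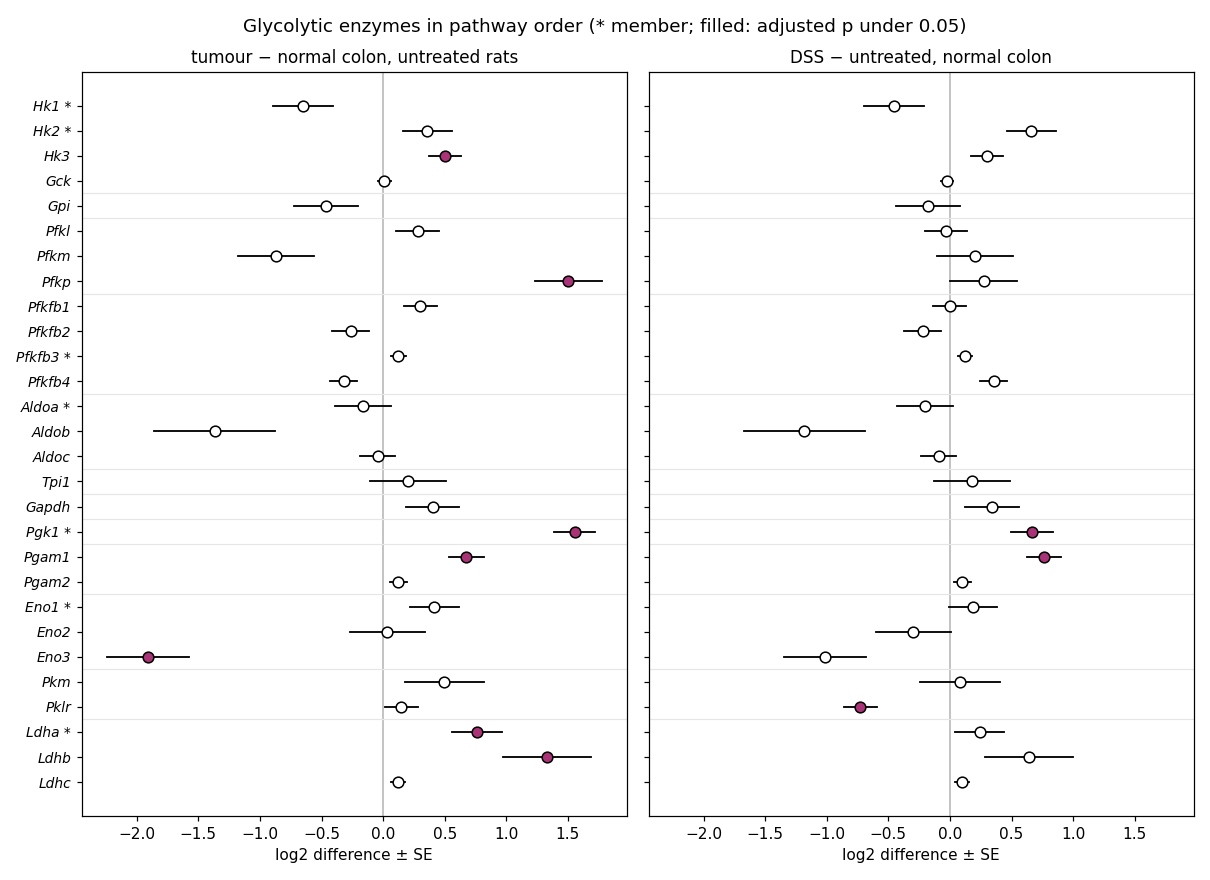
Log2 differences ± SE (horizontal axis) of 28 glycolytic genes in pathway order from hexokinase to lactate dehydrogenase, for tumour against normal colon of untreated rats and for DSS against untreated normal colon; stars mark the members and filled points have an adjusted p below 0.05. Pgk1 and Pgam1 are filled to the right of 0 in both panels, while Eno3 at -1.91 is filled to the left in the first.

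Between DSS and untreated normal colon 2 of these 21 enzyme genes were called, where 7.37% of all features were called. Pgam1 rose by 0.76 ± 0.14 (adjusted p 0.00235), which missed with median centring (adjusted p 0.775) and with the processed signals (adjusted p 0.0928). Within lot 2 it was 1.01 and missed as well (adjusted p 0.225). Pklr, the liver and red cell pyruvate kinase, was lower, at -0.73 ± 0.13 (adjusted p 0.00240). In tumours of DSS rats against their normal colon, Pklr was higher by 1.23 ± 0.13 (adjusted p 1.45e-05), and Pfkfb4, named after its value was seen, was lower at -0.59 ± 0.11 (adjusted p 0.00259). The other 19 did not pass. The DSS difference in tumours was -0.31 ± 0.14 for Pgam1 and 0.35 ± 0.13 for Pklr, and neither passed. The difference of the DSS differences between the tissues passed for Pgam1, at -1.07 ± 0.20 (adjusted p 0.00575), and for Pklr, at 1.08 ± 0.19 (adjusted p 0.00389). With median centring neither passed, at -0.25 (adjusted p 0.811) and 1.82 (adjusted p 0.213). Within lot 2 neither passed, at -1.58 and 1.44 (adjusted p 0.186 and 0.146). Pgam1 also missed with the processed signals (adjusted p 0.0721).

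Of 10 measured glucose and lactate transporter genes outside the members, 1 was higher and 4 were lower in tumours of untreated rats. Over all features 8.69% were higher and 9.49% lower there. Slc16a3, the lactate exporter MCT4, was higher by 2.23 ± 0.30 (adjusted p 7.19e-05). Slc16a1, the transporter MCT1 that carries butyrate and lactate into colonocytes, was lower, at -1.42 ± 0.20 (adjusted p 0.000129), and so was Bsg, the chaperone of both carriers, at -0.71 ± 0.18 (adjusted p 0.00908). In DSS rats Slc16a1 was again lower in tumours, at -1.18 ± 0.20 (adjusted p 0.00130), a call that ended with median centring (-0.44, adjusted p 0.588) and within lot 2 (-1.09, adjusted p 0.154). Bsg in untreated tumours was -0.38 in lot 1 (adjusted p 0.136) and -1.20 in lot 2, and missed without rat 8 (adjusted p 0.0521). In tumours of DSS rats Slc16a3 at 0.66 ± 0.30 did not pass. The other two that fell in untreated tumours were Slc16a7 at -1.01 ± 0.25 and Slc2a5 at -0.97 ± 0.31, named after their values were seen. The difference of differences for Slc16a3 was -1.57 ± 0.42 (adjusted p 0.0542).

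The list of pyruvate dehydrogenase and its regulators had 9 measured genes, of which 1 was higher and 2 lower in untreated tumours, where 18.2% of all features were called. Pdk3, a kinase that switches the complex off, was higher by 1.02 ± 0.13 in untreated rats and 0.86 ± 0.13 in DSS rats (adjusted p 6.17e-05 and 0.000490). Pdk2, another such kinase, was lower in untreated tumours, at -1.14 ± 0.33 (adjusted p 0.0214), as was the phosphatase Pdp1 at -1.06 ± 0.32 (adjusted p 0.0254). The Pdk2 call was lost without rat 3, 4 or 8 and the Pdp1 call without rat 3 or 4.

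Among 26 measured genes known to respond to hypoxia, 4 were higher and 3 lower in untreated tumours, with a list median of 0.09. Of all features 18.2% were called there, 8.69% higher and 9.49% lower. Ero1a, an oxidase of protein folding, was higher by 1.89 ± 0.27 (adjusted p 0.000120), and Hmox1, the haem-degrading enzyme, by 0.93 ± 0.21 (adjusted p 0.00504; 0.0508 without rat 8). Named after their values were seen, Nos2 was also higher at 1.27 ± 0.31, and Adm at -1.23 ± 0.37, Higd1a at -0.94 ± 0.29 and Gbe1 at -0.66 ± 0.16 were lower. In tumours of DSS rats Higd1a alone passed, at -1.20 ± 0.29 (adjusted p 0.0142). Between DSS and untreated normal colon 2 of the 26 were lower and none was higher, where 7.37% of all features were called, 3.98% higher and 3.39% lower. Edn1, the peptide endothelin 1, was lower at -1.24 ± 0.35 (adjusted p 0.0364), and Kdm3a, a histone demethylase, at -0.74 ± 0.18 (adjusted p 0.0201). Edn1 passed in 15 of 26 alternative settings and Kdm3a in 20, with calls lost without rat 3, 4, 6, 7 or 9 for Edn1 and without rat 1, 2, 6 or 8 for Kdm3a.

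The HIF subunits and the oxygen-sensing genes gave 1 called gene among 11 measured. Shares over all features were 18.2% for untreated tumours, 7.66% for DSS tumours and 7.37% for DSS in normal colon. Vhl, which marks HIF for destruction, was lower in untreated tumours, at -1.30 ± 0.19 (adjusted p 0.000157), in DSS tumours, at -0.64 ± 0.19 (adjusted p 0.0491), and with DSS in normal colon, at -0.76 ± 0.19 (adjusted p 0.0217). The DSS-rat value turned to 0.10 with median centring and passed in 10 of 27 settings, being lost without rat 2, 3, 4, 5, 6, 7 or 9. The DSS difference in normal colon passed in 17 of 26 and was lost without rat 1, 3, 4, 5 or 6. Epas1, the HIF-2 alpha subunit, and Hif1an, the asparagine hydroxylase, did not pass at -0.79 ± 0.33 (adjusted p 0.112) and 0.29 ± 0.11 (adjusted p 0.0770) in untreated tumours. Of 8 measured VEGF ligands and receptors, Flt1, a VEGF receptor, was higher in untreated tumours by 0.38 ± 0.12 (adjusted p 0.0277), a call kept in 17 of 27 settings, with values from 0.30 to 1.28, and lost without rat 3, 4, 8 or 10. Pgf at 0.22 ± 0.10 and Vegfc at -0.40 ± 0.21 did not pass. Of the list genes named by rule in these paragraphs, no call was kept with median centring other than that of Pklr for tumours of DSS rats.

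RNA ratios of cell type markers differed between the same groups. In these tissue samples, fewer cells of a type and less RNA per cell cannot be told apart. The mean log2 ratio of 7 leukocyte markers ran from -0.36 to 0.09 in untreated normal colon, from 0.68 to 1.09 with DSS, from 0.87 to 1.80 in untreated tumours and from 0.69 to 1.19 in DSS tumours. In the same order the group means of Pgk1 were 0.10, 0.76, 1.65 and 1.58. Those of Ldha were -0.07, 0.17, 0.69 and 0.26, and those of Car9 were 0.23, 0.02, -0.50 and -0.57. The medians of the proliferation, fibroblast and endothelial marker means were also higher in the last 3 of these groups than in untreated normal colon. The endothelial medians ran from -0.05 to 0.12. For DSS in normal colon 3 of 7 leukocyte, 2 of 6 proliferation, 1 of 7 fibroblast and 0 of 8 endothelial markers were called higher. In tumours of DSS rats against their normal colon these counts were 2, 0, 0 and 0. In untreated tumours 4 of 7 leukocyte and 2 of 6 proliferation markers were called higher. Of all features 3.98%, 3.79% and 8.69% were called higher in these comparisons, in that order. The mean of 9 squamous markers ran from 2.85 to 4.41 in DSS normal colon, against -0.48 to 1.57 in untreated normal colon and below 0 in every tumour, and 9 of 9 were called higher with DSS. The mean of 5 goblet markers ran from -0.0005 to 0.27 in untreated normal colon, from -0.77 to -0.23 with DSS, and from -2.91 to -0.83 and -2.85 to -1.92 in untreated and DSS tumours. That of 8 absorptive colonocyte markers, 4 of which were lower in tumours of either treatment and 1 higher, ran from -1.66 to -0.44 in untreated normal colon and from -3.28 to -1.42 in untreated tumours. Proliferation markers (6 measured) ran from -0.29 to 0.21 in untreated normal colon, from 0.25 to 1.08 with DSS, and from 0.04 to 0.93 and 0.39 to 1.21 in untreated and DSS tumours. Fibroblast markers (7) ran from -2.63 to -1.41 in untreated normal colon and from -1.51 to 0.17 in untreated tumours, with 4 of 7 called higher. In untreated tumours 1 of 8 endothelial markers was higher, 1 of 5 smooth muscle markers was lower, and 0 of 5 red blood cell markers passed. The part of these cell types in the member results was not tested.

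The features whose profile over the 20 samples lay nearest to a member's, by root mean square difference of centred profiles, included near copies. For Aldoa this was Aldoart2 (0.10) and for Ldha the pseudogene Ldha-ps4 (0.12). For Pgk1 it was Myl12b, a myosin light chain (0.25), whose own differences were 1.45 for tumours of untreated rats, 0.78 for tumours of DSS rats and 0.39 for DSS in normal colon. The nearest to Car9 was Acot7 (0.20), to Hk2 Matcap1 (0.23), to Slc2a1 Heph (0.21), to Eno1 Dgat1 (0.20), to Vegfa Cc2d1b (0.11) and to Pfkfb3 Disp3 (0.06). These are descriptions of the profiles and carry no test.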

How the data were processed

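Colon RNA of each rat (Cy3) was hybridised with a pool of wild-type rat colon RNA (Cy5) on 2-colour Agilent arrays, with no dye swap, so dye bias of a probe stays in its level and cancels between groups. Per the file headers, the deposited spot intensity values of both channels came from version 9.1.3.1 of Agilent Feature Extraction. Their deposited log10 ratio is Cy5 over Cy3 and was used to settle the direction. It matched to within 0.01 on 75.1% to 98.9% of gene spots of each array. Among gene spots whose deposited ratio was not 0, it matched on 100% on every array. The genome build was not given in the sources used here. What was done with the software Partek, named in the submitters' processing notes, is not stated there.

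Mean signals were corrected for background (normexp, offset 50) and normalized within arrays (loess) in limma 3.58.1 (R 4.3.3), and spots of a probe and repeat arrays of a sample were averaged, so 24 arrays gave 20 samples. Rats 2, 3 and 6 had a repeat array of normal colon, and rat 6 also had a repeat tumour array. Of 41012 gene probes, 20591 were named, 10835 of them by accession, and 20421 kept the file's name. A gene took its brightest probe, and probes well above background in Cy3 on at least 5 arrays were kept, which left 26102 features, 13337 with a symbol. Missing values made up 0.0701% of the table. A group-means model of all 4 groups was fitted (lmFit, eBayes, residual df 16), and p-values were two-sided and adjusted over all features, with a threshold of 0.05. The number of arrays, not counting depth, limits precision. In a test on simulated data for the tumour comparison in untreated rats, limma recovered 76 of 100 features changed by 1 on the log2 scale and 100 of 100 changed by 2, among 26102 features. It also called 10 unchanged features. The simulated noise was independent between samples, with no rat, slide or lot effects, and a far smaller share of features was changed than was called in the data. So these counts check the code and do not give the power of the real test.

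The replicate number names the rat, so normal and tumour samples with the same number come from 1 animal. Their deviations from the group means correlated at r = 0.0795 (rat 2) to 0.567 (rat 5), and the fits with the rat as a block use this pairing. The tumour array of each rat also shared a slide with a normal array of that rat. The consensus correlation over all features (limma) was 0.271 within rats. The fit with slide as a term used a consensus correlation of 0.587. A shared animal and a shared slide therefore cannot be told apart in the correlations within rats or in the fits with the rat as a block. Each slide also held arrays of other rats. The alternatives were other background, offset, filter, probe and normalization choices, the rat as a block, lot, slide and scan day as terms, single lots, array weights, leaving out the 3 arrays with raised signal, and leaving out each rat. Lots were read from slide identifiers and are not named in the labels.

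The members and lists were chosen with earlier results of these data known. All members and their probes are named. From each other list the 3 genes with the smallest p for tumours of untreated rats are named, with any that passed for DSS, as are the nearest profile to each member and the label checks Mmp7, Axin2 and Slc26a3. Some genes that this rule names are not reported here. Settings for named list genes that passed were added after seeing the data. Promoters and gene names came from RefSeq tables (GRCr8).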

Additional observations from a re-analysis of the deposited data

Results flagged for a closer look

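Of 40 groups of 5 rats tested for a rat far from the others (4 groups for each of 10 genes), 3 had such a rat, where chance gives about 1 in 20, or 2. In normal colon of DSS rats, Pgk1 was highest in rat 6, at 1.23, with the other 4 between 0.55 and 0.72. Without rat 6 the DSS difference of Pgk1 was 0.55 (adjusted p 0.0485, limma). In tumours of DSS rats, Aldoa was highest in rat 6, at 0.588, and Vegfa was highest in rat 9, at 0.599. The tumour of rat 9 was read on an array with raised sample-channel signal, and the part of this in the Vegfa value was not tested.

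The effect of DSS differed between tumour and normal colon, by the interaction term of the limma fit, for 3 of the named genes. It was -3.61 for Mmp7 (adjusted p 0.000442), -1.07 for Pgam1 (adjusted p 0.00575) and 1.08 for Pklr (adjusted p 0.00389). With median centring Pgam1 was -0.25 (adjusted p 0.811) and Pklr 1.82 (adjusted p 0.213). Within lot 2 they were -1.58 and 1.44, and neither passed (adjusted p 0.186 and 0.146). Pgam1 missed with the processed signals (adjusted p 0.0721). Mmp7 passed in 26 of 26 settings. None of the 10 members passed this test.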

How the results depend on the processing

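With median centring in place of loess, members called fell from 3, 2 and 1 to 0 for tumours of untreated rats, tumours of DSS rats and DSS in normal colon, and features called from 4745, 2000, 1925 and 681 (the last for the difference of differences) to 903, 653, 363 and 189. Medians of all features shifted to -0.05, 0.25, -0.10, 0.23 and 0.38 in the 5 comparisons, DSS in tumours being the fourth. Below-threshold signs turned for DSS in tumours (Pgk1 0.55, Aldoa 0.40, Car9 0.36, Eno1 0.33, Hk1 0.32, Ldha 0.22, Slc2a1 0.15), tumours of DSS rats (Eno1 0.61, Aldoa 0.52, Hk1 0.23, Slc2a1 0.10, Hk2 0.04, and Vhl 0.10, which was called), the difference of differences (Aldoa 0.80, Eno1 0.28, Ldha 0.19, Pgk1 0.14), and Vegfa (-0.16 for tumours of untreated rats, -0.14 for DSS in normal colon). The cause was not tested.

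The fixed replicate block (rat) gave 5 members for tumours of untreated rats, 3256 features for tumours of DSS rats, and 1 member (Pgk1) and 1524 features for the difference of differences. The random replicate block gave 3370 features for tumours of DSS rats, 2 members for DSS in normal colon, and 1 member and 1670 features for the difference of differences. Lot, slide and scan day as terms each gave 5 members for tumours of untreated rats and 2 for DSS in normal colon; for the difference of differences they gave 1, 1 and 2 members and 1374, 1197 and 1567 features, for tumours of DSS rats 3200, 3172 and 3424 features and for DSS in normal colon 3492, 3635 and 4030. DSS in tumours had 10 features with slide, 51 with scan day and 1 with processed signals. Processed signals gave 0 members for DSS in normal colon, and offset 16 and a filter at 12 arrays 2 each. Quantile normalization gave 1 member for tumours of DSS rats, 3 members and 3409 features for DSS in normal colon and 1250 features for the difference. Array weights gave 3227 features for tumours of DSS rats, 3 members and 5158 features for DSS in normal colon and 1245 for the difference. With fewer samples, lot 1 gave 1 member for tumours of DSS rats, 3110 features for DSS in normal colon and 418 for the difference; lot 2 gave 0 members for tumours of DSS rats and DSS in normal colon, and 2438, 110, 2 and 3 features. Without the raised-signal arrays the difference had 316 features.

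Other values that changed sign, none past the threshold, were Vegfa with processed signals (-0.04), array weights (-0.04) and in lot 1 (-0.05) for tumours of untreated rats, with array weights (-0.06), in lot 1 (-0.12) and without raised arrays (-0.01) for tumours of DSS rats, in lot 1 (-0.04) for DSS in tumours, and in lot 1 (-0.07), without raised arrays (-0.17) and with array weights (-0.01) for the difference. Hk2 for DSS in tumours was -0.04, -0.02, -0.03, -0.13 and -0.05 with processed signals, quantile, offset 16, lot 1 and array weights. The Aldoa difference of differences was 0.05, 0.02, 0.01, 0.10 and 0.15 with processed signals, slide, scan day, lot 1 and array weights. In lot 1 the difference was -0.03 for Hk1 and for Car9. In lot 2, Slc2a1 was -0.18 for tumours of untreated rats, Ldha -0.01 for tumours of DSS rats, Aldoa 0.23 and Car9 0.08 for DSS in normal colon, and Car9 0.45, Hk1 0.25 and Pgk1 0.18 for DSS in tumours. Eno1 for tumours of DSS rats was 0.05 without raised arrays.

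Leaving out each rat gave 3 members and 2628 to 5142 features for tumours of untreated rats, 1 to 2 members and 1085 to 2066 features for tumours of DSS rats, 0 to 2 members and 1215 to 2218 features for DSS in normal colon, 0 to 3 features for DSS in tumours and 324 to 809 for the difference. Counts moved by over 1.5 times without rat 8 (2628) for tumours of untreated rats, without rats 1 (1180), 5 (1085) and 9 (1200) for tumours of DSS rats, without rats 3 (1215) and 5 (1260) for DSS in normal colon, without rat 2 (3) for DSS in tumours, and without rats 1 (324), 3 (431), 4 (345), 5 (388), 8 (371) and 9 (386) for the difference. Vegfa ran from -0.07 to 0.11, -0.03 to 0.18, -0.04 to 0.11 and -0.04 to 0.17 for tumours of untreated rats, tumours of DSS rats, DSS in normal colon and the difference. For DSS in tumours Hk2 ran from -0.11 to 0.11, Pgk1 from -0.21 to 0.03 and Car9 from -0.19 to 0.07, and the difference ran from -0.04 to 0.31 for Hk1 and -0.13 to 0.07 for Aldoa.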
